A study of Canis lupus familiaris with 26 samples.

Results

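Vesicle and intracellular protein transport genes were followed in the canine corpus luteum (CL). The group held 58 of the 19856 genes counted. It was formed from the authors' lists of differentially expressed genes (DEGs), by taking every listed gene whose symbol begins as those of the Rab, VPS, SNX, SEC, ARF, ARFGEF, ARFGAP, COP, TRAPPC, TMED, STX, VAMP and EHD families do. The lists themselves rest on count values of these samples, so the comparisons that made them are given as descriptions without a test. Of the 58 genes, 43 were on the list for luteal stage, which was made from control samples alone, and 15 were on treatment lists alone. Of the 43, 9 were also on a list for treatment. The beginnings of the symbols also brought in SEC14L1 and SEC14L2, which are lipid-binding proteins and no part of a vesicle coat.

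Proteins made at the endoplasmic reticulum (ER) enter it through the Sec61 channel and leave it in vesicles with a COPII coat. Vesicles with a COPI coat, which ARF GTPases recruit, carry cargo within the Golgi apparatus and back to the ER. Tethering complexes, Rab GTPases and SNAREs then decide which membrane a vesicle meets and fuses with, while sorting nexins, retromer and EHD ATPases act on the endosomes. In the CL these routes serve the secretion of peptide hormones and matrix, the turnover of surface receptors and the uptake of lipoprotein cholesterol, the precursor of progesterone.

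The data were RNA reads from whole CL of 26 mixed-breed bitches, each library being 1 animal, collected 5, 10, 20 or 30 days after spontaneous ovulation. The study had sequenced and then removed 1 further sample from each group of days 10 and 30 as an outlier. The 13 treated bitches had received firocoxib, an inhibitor of the prostaglandin-producing enzyme COX2, by mouth every day from ovulation at 10 mg/kg (n = 4 on day 5 and n = 3 on days 10, 20 and 30). The 13 control bitches numbered 4 on day 5 and 3 on each later day, and are described as given a placebo in the study's methods and as untreated in the deposited design. Days 5+10 are called the early CL and days 20+30 the mature CL, as the study grouped them (7 early and 6 mature samples in either arm).

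Totals lay between 12831896 and 22658950 reads per sample, and levels are given as CPM, the reads of a gene per 1000000 reads of the sample after scaling between samples. The members were counted at a median of 779 reads per sample, with RAB33A the lowest at a mean of 8.69 reads. The only 2 luteal markers that could be followed, LHCGR and CYP19A1, were present in every sample. Their summed CPM ranged from 80.04 in day 5 treated replicate 1 to 2513 in a day 30 treated sample, and neither gene was at 0. CYP19A1 made up most of the sum, with a mean of 164 CPM beside 13.3 CPM for LHCGR in day 5 treated samples. In whole tissue, fewer cells of a type and less RNA per cell cannot be told apart.

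A set of 3 treated libraries stood apart together, namely replicate 1 of day 5, replicate 1 of day 10 and replicate 2 of day 20. On the leading principal component of all genes, which held 37.8% of the variance, they scored -122.3 or lower, and the next sample scored -48.6. They came from 3 different days and therefore fell on both sides of the stage comparison and into the treated group of 3 treatment comparisons. Among the members, 20 of 58 were lower in these 3 libraries than in every one of the other 10 treated libraries, and 9 of 58 were higher. Over all 14055 genes kept, 24.4% were lower and 15.9% were higher in the same way. Because the libraries were singled out by their values, this is a description.

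The members below the range of the other treated libraries came from several stations of the route. ARFGEF1, an exchange factor that activates ARF GTPases at the trans-Golgi network, was at 7.63, 7.64 and 15.5 CPM in the 3 libraries and at 40.3 to 121 CPM in the other 10. TRAPPC8, a subunit of the TRAPP tether, was at 13.8, 13.8 and 21.8 CPM against 56.8 to 167 CPM. SEC24B, which selects cargo for COPII vesicles, was at 23.3 to 25.2 CPM against 62.4 to 103 CPM. All 4 TRAPP genes, RAB5A, RAB8B, RAB12, RAB30, RAB3GAP1, RAB3GAP2, VPS8, VPS26A and VPS53 lay on the same side, together with SEC23IP, SEC31A, ARFGEF2, SNX10 and SNX25. Above the range lay ARF1, the GTPase that recruits COPI, at 223, 236 and 265 CPM against 46.9 to 209 CPM. The others above it were ARFGAP2, TMED9, SEC16A, VPS52, SNX19, RAB5B, EHD1 and VAMP5. The map of all members by sample shows these 3 libraries as columns of their own.

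**Figure D1:**
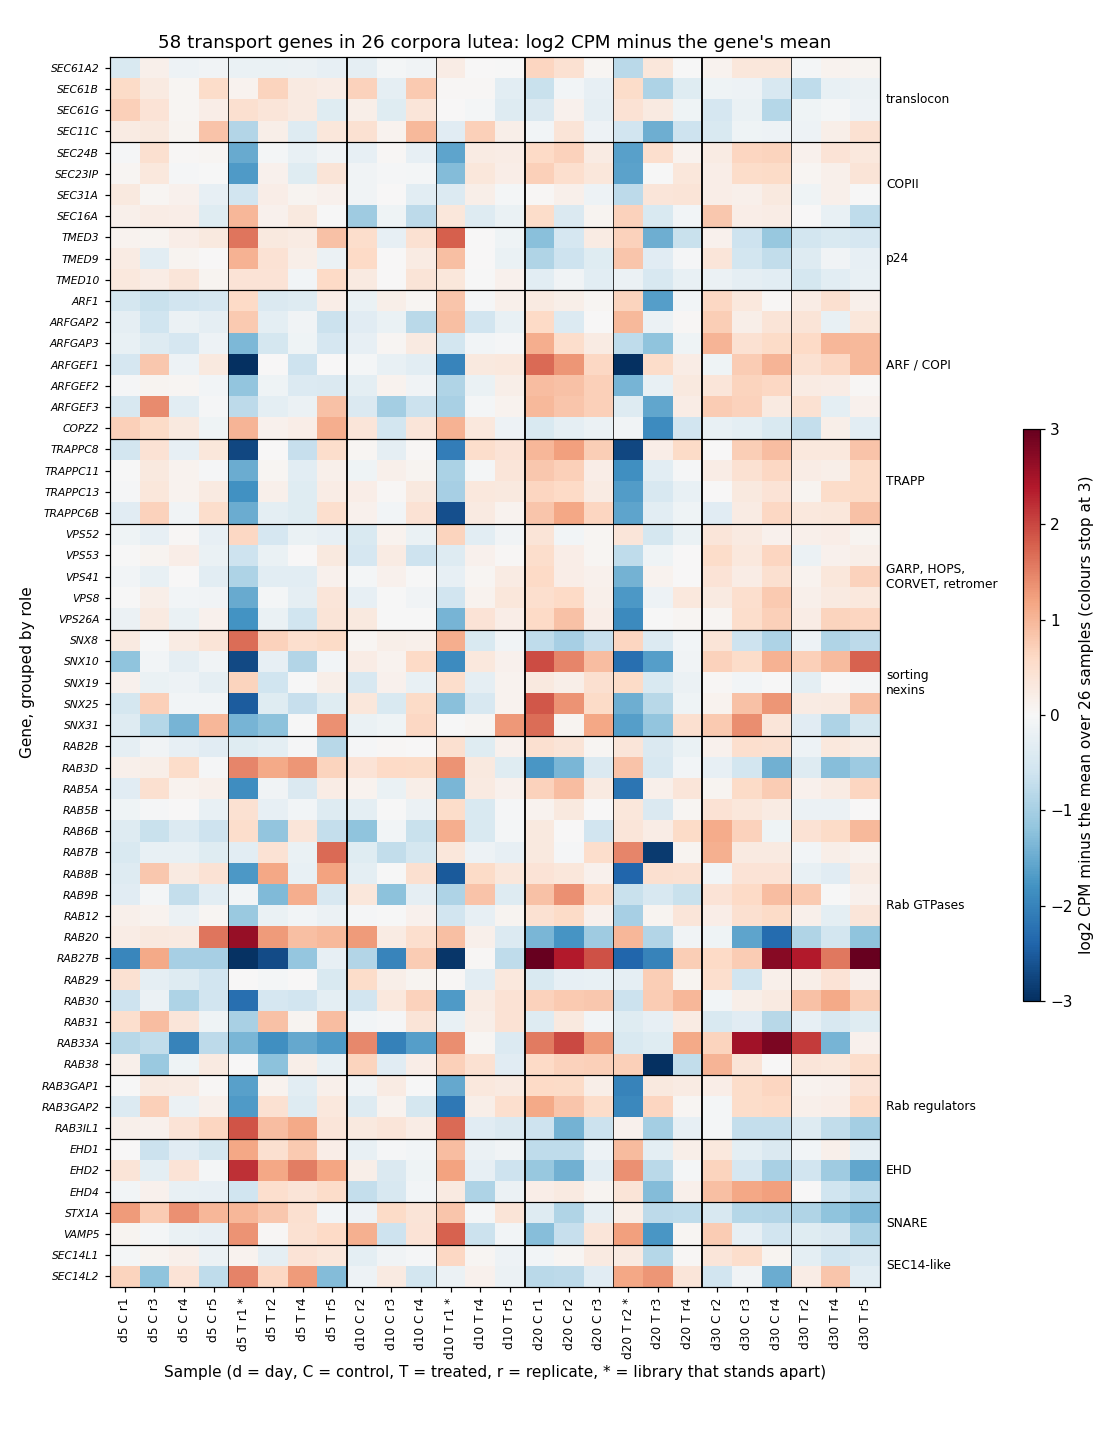
Each row is 1 of the 58 genes, grouped by role, and each column 1 of the 26 samples; colour gives log2 CPM minus the gene's mean over all samples. The 3 columns marked with an asterisk (day 5 treated replicate 1, day 10 treated replicate 1 and day 20 treated replicate 2) are blue across the TRAPP genes, ARFGEF1, RAB3GAP1 and RAB3GAP2, while RAB27B is red in day 20 controls and in day 30 samples of the treated arm.

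The stage list described control samples as follows. It held 30 members as higher and 13 as lower in the mature CL. In the fit made here, 24 of the 30 and 10 of the 13 also passed a P under 0.01 and a false discovery rate (FDR) under 0.1, where 20.5% of all 13503 genes tested passed (10.1% higher and 10.4% lower). The list used this contrast, so nothing is read from those counts. The median log2 change was 0.59 for the members listed as higher and -0.65 for those listed as lower, and it was 0.78 and -1.10 for the other listed genes. The change closest to 0 among the listed members was that of VPS52, at 0.34. Outside the stage list, ARFGEF3 and RAB30 had changes of 0.69 (SE 0.35) and 0.65 (SE 0.27).

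By role, the listed members of the control arm divided as follows. Both stage-listed COPII genes (SEC24B and SEC23IP), both TRAPP genes (TRAPPC8 and TRAPPC11) and all 5 genes of the late tethers and retromer were listed as higher in the mature CL. The last 5 were VPS52 and VPS53 of the GARP complex, VPS41 of HOPS, VPS8 of CORVET and VPS26A of retromer. The p24 cargo receptors TMED3, TMED9 and TMED10, which cycle between ER and Golgi, were all listed as lower, as were SEC61B, SEC61G and SEC11C (a signal peptidase subunit), whereas SEC61A2 was listed as higher. The ARF group was higher in 5 of 6 genes (ARF1, ARFGAP2, ARFGAP3, ARFGEF1 and ARFGEF2), with the coatomer subunit COPZ2 lower. Of 12 Rab GTPases, 9 were listed as higher and RAB3D, RAB20 and RAB31 as lower. Among the 43 listed members, the groups of early and mature controls did not overlap for 9, where 6.18% of all genes did not. The 43 had been chosen from these same controls, so nothing is read from that count. The 9 were RAB2B, RAB7B, RAB9B and ARFGEF2 on the higher side and RAB3D, RAB20, RAB3IL1, STX1A and TMED10 on the lower.

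The stage list did not use treated samples, so the same stage comparison within the treated arm was a test of these genes in animals that had no part in their selection. Of the 43 listed members, 42 had enough reads, RAB33A being below the filter at 0 to 1.46 CPM. RAB27B was higher in the mature CL, and RAB3IL1 and STX1A were lower, each in the direction listed for controls. The remaining 39 did not pass. In all, 4.65% of 13747 genes passed (1.54% higher and 3.11% lower), and 3 of 42 members stood beside that background. For the other genes of the stage list, 7.89% of those listed as higher and 18.4% of those listed as lower passed in their listed direction, beside 1 of 29 and 2 of 13 members. Without the 3 libraries that stood apart, 9 members passed, 2 higher and 7 lower, beside 11.5% of all genes (4.26% higher and 7.27% lower). These were 2 of 29 members listed as higher and 7 of 13 listed as lower, where 17.2% and 30% of the other listed genes passed.

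RAB27B directs the docking of secretory granules and of late endosomes at the plasma membrane. Its level in treated samples ran from 0.57 to 5.58 CPM in the early CL (median 2.39) and from 0.968 to 71.9 CPM in the mature CL (median 12.8). The 3 day 30 samples (16.5, 29.0 and 71.9 CPM) lay above every early sample, whereas day 20 treated replicates 2 and 3 (0.968 and 1.30 CPM) lay within the early range. The log2 change was 3.097 (SE 0.88; FDR = 0.0831, edgeR). Day 30 alone over the early CL gave 3.96 (SE 0.68; FDR = 0.0116) and day 20 alone gave 0.59 (SE 0.86; FDR = 0.887). In controls, which had chosen the gene, early samples were at 1.32 to 12.2 CPM and mature samples at 8.30 to 50.7 CPM. Leaving out 1 treated sample at a time moved the FDR of RAB27B between 0.0261 and 0.228, and it passed in 4 of 13 such fits.

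RAB3IL1, a factor that activates Rab GTPases of the secretory route, went the other way. It was at 40.4 to 201 CPM in the early treated CL (median 104) and at 26.7 to 59.7 CPM in the mature treated CL (median 36.9). The 2 highest early values (201 and 178 CPM) and the highest mature value (59.7 CPM) were those of the 3 libraries that stood apart. The log2 change was -1.46 (SE 0.39; FDR = 0.0711, edgeR), and without those libraries it was -1.12 (SE 0.31; FDR = 0.0629). STX1A, a SNARE of the plasma membrane that takes part in regulated exocytosis, was at 4.22 to 8.98 CPM in the early treated CL (median 6.24) and at 1.68 to 5.06 CPM in the mature treated CL (median 2.44). The highest mature value belonged to day 20 treated replicate 2, and the other 5 mature samples lay below every early sample. Its log2 change was -1.26 (SE 0.34; FDR = 0.0716) and without the 3 libraries -1.36 (SE 0.28; FDR = 0.0349). RAB3IL1 and STX1A each passed in 4 of 13 fits that left out 1 sample.

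Cell type markers moved with stage as well, but only markers on the authors' DEG lists had an identifier here. Markers that passed in none of the authors' contrasts could therefore not appear. In treated samples the summed CPM of LHCGR and CYP19A1 was 80.04 to 749 in the early CL and 235 to 2513 in the mature CL, with log2 changes of 1.72 for LHCGR, which passed, and 1.81 for CYP19A1, which did not. Of 6 smooth muscle and pericyte genes, 5 lay below 0 (median -1.82) and DES passed as lower at -2.50, while the 5 oocyte genes lay above 0 (median 2.07) and the 5 fibroblast genes below 0 (median -0.44), none of them passing. CD68, the only macrophage marker with an identifier, was at -1.82, the 4 endothelial genes had a median of -0.56, and of the granulosa genes INHA (-2.20) passed and FSHR (0.52) did not. In controls the 2 luteal genes were at 0.91 and 2.23, all 5 fibroblast genes were below 0 (median -1.34), CD68 was at -1.84, the smooth muscle genes had a median of -1.19 and the oocyte genes one of -2.39. The 4 endothelial genes had a median of 0.64 in controls, with 3 above 0 and PECAM1 (-0.24) below. Of the granulosa genes, INHA was at -1.62 and FSHR at 0.70 in controls. The part of these markers in the stage values of the members was not tested.

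The next members by P on the lower side belonged to the early secretory pathway. COPZ2 was at 135 to 323 CPM in the early treated CL (median 189) and at 41.1 to 172 CPM in the mature (median 112), a log2 change of -1.02 (SE 0.33; FDR = 0.120, edgeR). TMED3 was at 54.9 to 208 CPM in the early CL and at 21.5 to 96.7 CPM in the mature (-1.18, SE 0.40; FDR = 0.133). TMED10 was at 108 to 172 CPM in the early CL and at 79.4 to 101 CPM in the mature (-0.57, SE 0.20; FDR = 0.136). None of these passed the FDR. TMED10 was the only 1 of 42 tested members whose early and mature treated samples did not overlap, beside 1.26% of all genes, and nothing is read from that count. In controls, which had chosen the gene, it did not overlap either (116 to 150 against 90.9 to 105 CPM). Without the 3 libraries, TMED3 (-0.98, SE 0.24; FDR = 0.0466) and TMED10 (-0.57, SE 0.17; FDR = 0.0737) passed, as did RAB3D (-1.38), RAB20 (-1.46) and RAB31 (-0.72). RAB3D acts on secretory granules, and RAB20 and RAB31 on phagosomes and endosomes.

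On the higher side, the members that followed RAB27B by P did not pass. ARFGAP3, which ends ARF1 activity at the Golgi, was at 56.4 to 140 CPM in the early treated CL (median 101) and at 61.6 to 285 CPM in the mature (median 174), a log2 change of 0.72 (SE 0.36; FDR = 0.278, edgeR). Its 3 day 30 samples (218, 279 and 285 CPM) lay above all early samples, and its day 20 samples (61.6, 84.7 and 130 CPM) did not. The sorting nexin SNX10 had the same shape, with 126, 147 and 262 CPM on day 30, 15.7, 24.3 and 70.6 CPM on day 20 and 11.6 to 94.9 CPM in the early CL (0.97, SE 0.60; FDR = 0.370). For SNX25 the change was 0.67 (SE 0.41; FDR = 0.372), from 4.21 to 26.1 CPM in the early CL to 8.71 to 45.4 CPM in the mature. RAB6B, a Golgi GTPase, was at 7.96 to 39.1 CPM and at 21.4 to 35.6 CPM (0.45, SE 0.33; FDR = 0.452), and it passed without the 3 libraries, 2 of which were its highest and second highest of the early group (0.91, SE 0.28; FDR = 0.0753).

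**Figure D2:**
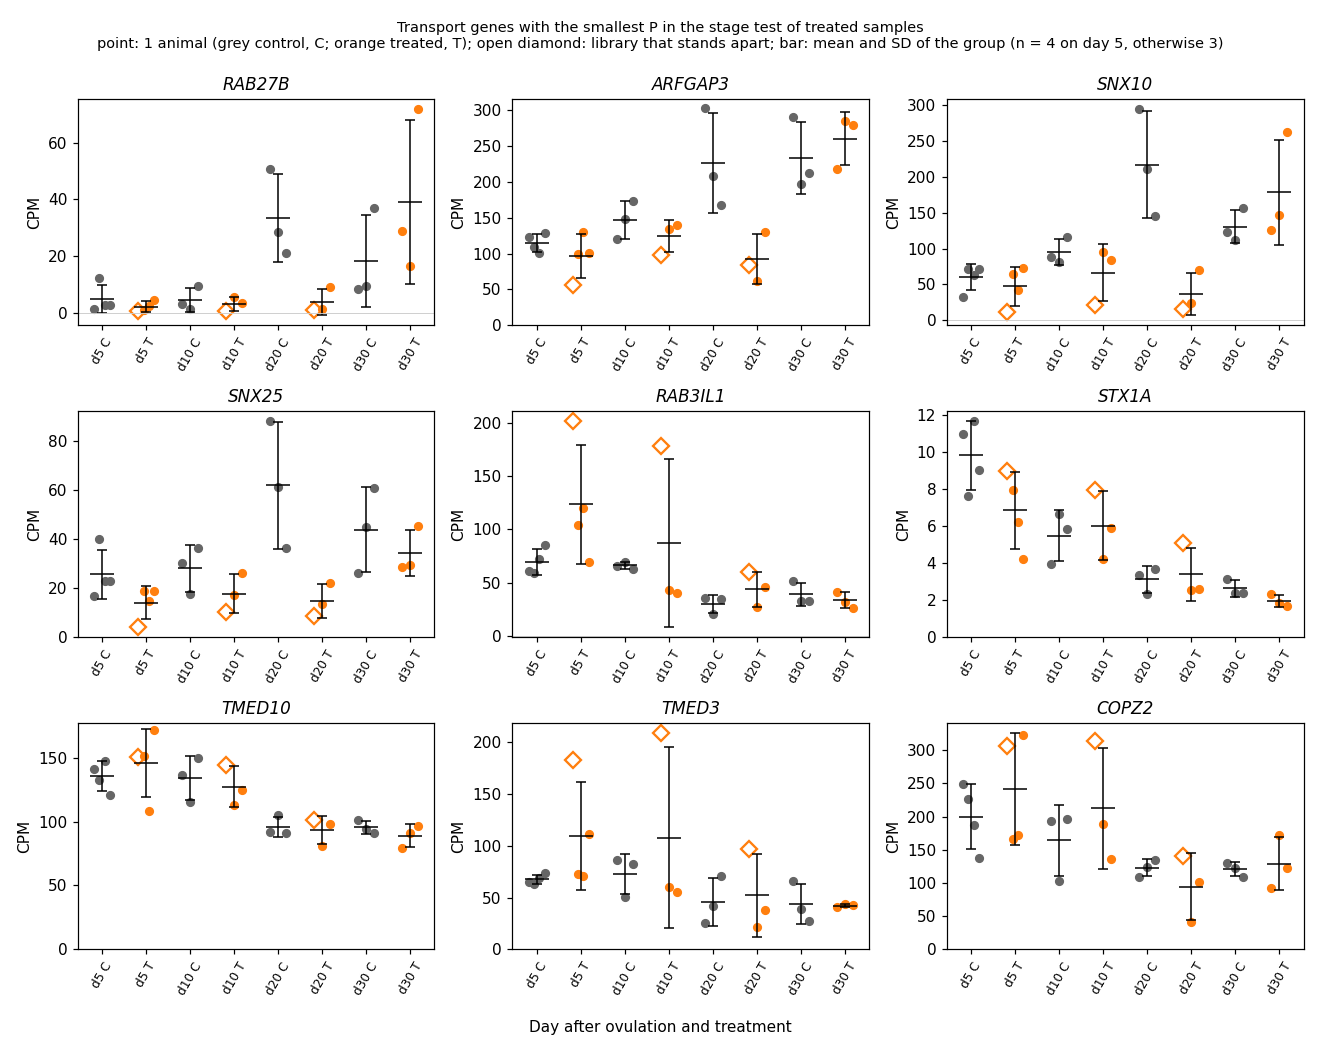
CPM of 9 members in every sample, by day and treatment (C control, T treated), with the group mean and SD; open diamonds are the 3 treated libraries that stood apart. RAB27B, ARFGAP3 and SNX10 are high in day 20 controls and day 30 treated samples and low in day 20 treated samples, while STX1A and TMED10 are lower on days 20 and 30 in both arms.

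The 2 days of the mature stage gave different counts when each was set against the treated early CL. For day 30 alone, 7 members passed: ARFGAP3 (1.29), SNX10 (1.71) and RAB27B (3.96) higher, and RAB20 (-2.19), RAB3D (-1.90), STX1A (-1.71) and RAB3IL1 (-1.67) lower, where 8.24% of all genes passed. For day 20 alone none of the 42 did, nor did any other gene, and 2 members had an unadjusted P under 0.05. Of the members listed as higher, 26 of 30 were above 0 on day 30 (median 0.45) and 15 of 29 on day 20 (median 0.05). Of those listed as lower, 12 of 13 were below 0 on either day, with medians of -0.81 and -0.70. Day 30 was not tested against day 20.

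Set beside controls, the direction of the members was as follows. Of the 29 tested members listed as higher, 22 were above 0 in the treated arm, with a median log2 change of 0.26, and of the 13 listed as lower, 12 were below 0, with a median of -0.89. Among the other genes of the stage list 89.5% and 85.4% kept their listed direction, with medians of 0.48 and -0.82. Without the 3 libraries that stood apart, 24 of 29 and 13 of 13 members had their listed direction, beside 87.7% and 84.8% of the other listed genes. The median over all genes was close to 0 in the treated arm (-0.003). Unadjusted, 9 members had a P under 0.05 in the treated arm, 1 higher and 8 lower, where 19.6% of all genes did.

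**Figure D3:**
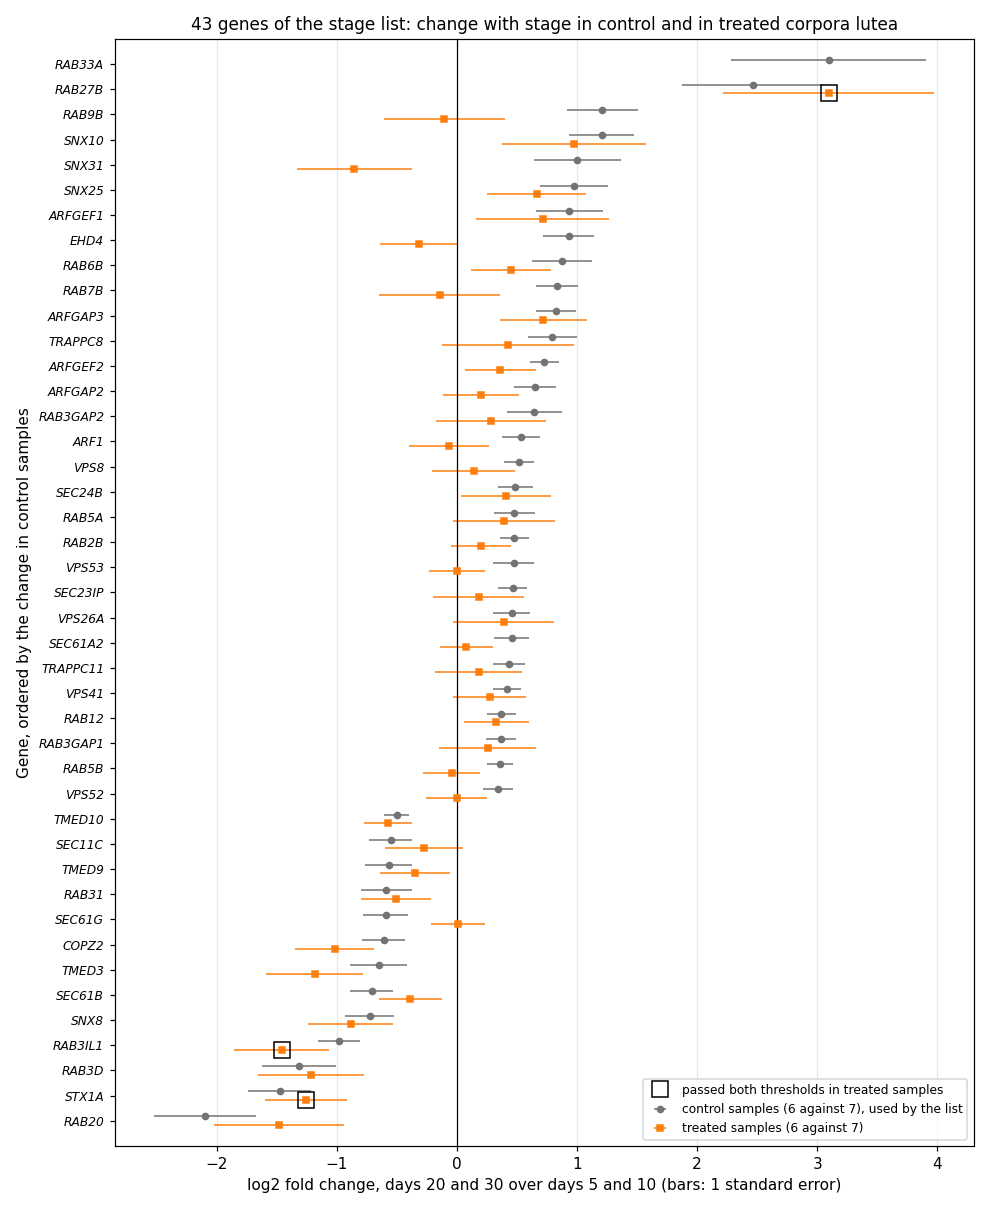
Log2 fold change of the mature over the early CL for the 43 genes of the stage list, in controls (grey circles, the samples the list was made from) and in treated animals (orange squares), with bars of 1 standard error. RAB27B, RAB3IL1 and STX1A are boxed; SNX31, EHD4, RAB7B and RAB9B lie right of 0 in controls and left of 0 in treated animals, and RAB33A has no treated value.

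For 8 members the sign was opposite in the 2 arms, and for none did the stage change in treated samples pass. SNX31, a sorting nexin, was at 8.37 to 44.6 CPM in early controls and 23.5 to 70.6 CPM in mature controls (log2 change 1.002, SE 0.36), and at 8.34 to 57.2 CPM and 6.99 to 31.0 CPM in early and mature treated samples (-0.85, SE 0.48; FDR = 0.327, edgeR). EHD4, which acts on early endosomes, was at 52.6 to 94.4 CPM in early controls and 92.2 to 205 CPM in mature controls (0.93, SE 0.21), against 45.6 to 126 CPM and 35.0 to 113 CPM in treated samples (-0.32, SE 0.32; FDR = 0.582). RAB9B, a GTPase of the route from late endosomes to the Golgi, had changes of 1.21 (SE 0.30) and -0.11 (SE 0.50), and it was low throughout, at 0.411 to 3.17 CPM. RAB7B, of a similar route, had 0.84 (SE 0.17) and -0.14 (SE 0.51), and its treated mature samples spread from 1.88 to 39.7 CPM. ARF1 (0.54 and -0.06), RAB5B of early endosomes (0.36 and -0.04), VPS52 (0.34 and -0.001) and SEC61G (-0.59 and 0.01) were near 0 in treated samples, with standard errors of 0.33, 0.24, 0.26 and 0.22. The difference between the arms was not tested.

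Among the members not yet given, RAB20 (-1.48, SE 0.54; FDR = 0.154, edgeR), RAB3D (-1.22, SE 0.44; FDR = 0.151) and SNX8 (-0.88, SE 0.36; FDR = 0.190), a sorting nexin, had an unadjusted P under 0.05 in the treated arm. The tethers and retromer lay at 0.43 for TRAPPC8, 0.18 for TRAPPC11, 0.39 for VPS26A, 0.27 for VPS41, 0.14 for VPS8 and 0.003 for VPS53. Their changes in controls had been 0.42 to 0.79, and the standard errors in the treated arm, 0.23 to 0.55, were larger than each of the treated values. The ARF exchange factors ARFGEF1 (0.71, SE 0.55) and ARFGEF2 (0.36, SE 0.30) and ARFGAP2 (0.20) were above 0. So were SEC24B (0.41) and SEC23IP (0.18), RAB3GAP1 (0.25) and RAB3GAP2 (0.29) of the complex that switches off Rab3 proteins, SEC61A2 (0.08), RAB2B (0.20), RAB5A (0.39) and RAB12 (0.33). Below 0 were SEC61B (-0.39), SEC11C (-0.27), TMED9 (-0.35) and RAB31 (-0.51).

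Partners of these genes from the same pathways that the symbols did not take in were counted over a list of transport genes. Of it, 59 had an identifier here, which they owe to the authors' DEG lists, and 47 of those were on the stage list. In treated samples 1 of the 47 passed, RABAC1, a receptor for prenylated Rab proteins, which was lower in the mature CL (-1.38, FDR = 0.0863, edgeR), as it had been in controls (-1.32). That 1 of 47 stood beside the 4.65% of all genes and the 7.89% and 18.4% of the other genes listed as higher and lower. Those 47 comprised 5 translocon partners, 4 COPII partners, 1 of COPI, 8 clathrin and adaptor genes, 6 tethers of the Golgi and exocyst, 8 SNARE partners and 15 further Rab regulators.

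Treatment was listed for 24 members on days 5, 20 or 30 and for none on day 10. The authors' lists differed widely in length, that of day 10 being by far the shortest and that of day 20 the longest. Over all genes, the lists of days 5, 20 and 30 each held more genes as higher than as lower. The counts of members are therefore not compared between days, and nothing is read from them. The lists were made from the same contrasts, so the following values are descriptions, and the changes on different days rest on different animals. On day 5, the lists held EHD1 and EHD2 as higher in treated CL. EHD1, which drives recycling from endosomes, was at 14.7, 16.1, 18.3 and 23.2 CPM in controls and at 26.7, 32.3, 40.3 and 51.9 CPM in treated samples (log2 change 1.06, SE 0.30). EHD2, which sits at the neck of caveolae, was at 26.7, 31.6, 42.9 and 44.0 CPM in controls and at 73.6, 74.3, 94.9 and 152 CPM in treated samples (1.44, SE 0.33). The groups did not overlap for either gene, as for 8.67% of all genes, and without the library that stood apart the changes were 0.86 and 1.15. Of 6 smooth muscle and pericyte markers, 5 were higher in day 5 treated samples and RGS5 was lower (-0.35), with a median log2 change of 1.998. Their summed CPM was 391 to 564 in day 5 controls and 801 to 2686 in day 5 treated samples. The part of these markers in the result was not tested.

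On day 20, the lists held 13 members, 9 as lower and 4 as higher in treated CL. RAB27B was at 21.0, 28.6 and 50.7 CPM in controls and at 0.968, 1.30 and 9.11 CPM in treated samples (-3.08, SE 0.90). SNX10 was at 146, 211 and 294 CPM in controls and at 15.7, 24.3 and 70.6 CPM in treated samples (-2.51, SE 0.65). ARFGAP3 was at 168, 208 and 303 CPM in controls and at 61.6, 84.7 and 130 CPM in treated samples (-1.26, SE 0.46). RAB9B was lower as well (-1.65, SE 0.54), from 1.84 to 3.17 CPM to 0.699 to 0.819 CPM. These 4 were listed as higher with stage, and their stage and day 20 comparisons share control samples. For all 4 the day 20 groups did not overlap, as for 30.3% of all genes. The changes without day 20 treated replicate 2 were -2.67, -2.17, -1.22 and -1.62.

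The other 5 listed as lower on day 20 were on no stage list. TRAPPC13 was at 45.4, 57.5 and 59.5 CPM in controls and at 11.9, 27.4 and 32.9 CPM in treated samples (-1.12, SE 0.46). TRAPPC6B was at 12.4, 14.1 and 17.8 CPM against 2.58, 6.36 and 7.19 CPM (-1.41, SE 0.49). ARFGEF3, a relative of the ARF exchange factors, was at 17.6 to 21.2 CPM against 3.61 to 12.5 CPM (-1.22, SE 0.50). In these 3 the groups did not overlap, as for 30.3% of all genes. RAB38, known from the making of lysosome-related organelles, was at 120, 128 and 129 CPM in controls and at 5.44, 47.3 and 129 CPM in treated samples (-1.04, SE 0.87). SNX19 was at 128, 140 and 159 CPM against 83.6, 101 and 170 CPM (-0.24, SE 0.41). For RAB38 and SNX19 the highest treated sample was replicate 2, and without it the changes were -2.24 and -0.59.

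The 4 members listed as higher on day 20 were SEC14L2, SEC31A, RAB29 and SEC61G. SEC14L2 was at 1.56, 1.58 and 2.21 CPM in controls and at 3.70, 6.51 and 7.28 CPM in treated samples (1.73, SE 0.49). Its groups did not overlap, as for 30.3% of all genes. RAB29, a GTPase of Golgi and lysosomes, was at 8.11, 9.32 and 9.48 CPM against 9.14, 11.8 and 18.7 CPM (0.60, SE 0.42). SEC31A, of the outer COPII coat, was at 195, 222 and 241 CPM against 125, 279 and 284 CPM (0.11, SE 0.45). The low treated sample was again replicate 2, and without it the change was 0.39 (SE 0.33). SEC61G was at 22.1, 24.9 and 32.8 CPM against 27.5, 36.3 and 40.5 CPM (0.42, SE 0.36), the groups overlapping.

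Across all 58 members, 39 lay below 0 on day 20, with a median log2 change of -0.31, where the median over all genes was 0.11 and 54.3% of genes were above 0. The day 20 list, made from this same contrast, held 13 of the 58 (9 as lower and 4 as higher), with TRAPPC13 and TRAPPC6B among those listed as lower. The counts and medians of the members given here are therefore descriptions, and nothing is read from them. The 30 members listed as higher with stage had been chosen with these same day 20 controls: 27 of them lay below 0 (median -0.69), as did 1406 of 1647 other genes listed as higher (median -0.65). Of the 13 members listed as lower with stage, 9 lay above 0 (median 0.23), beside 1497 of 1735 other genes listed as lower (median 0.90), and of the 15 on treatment lists alone 8 lay below 0 (median -0.17). The 4 TRAPP genes lay between -1.41 and -1.05 and all 5 genes of GARP, HOPS, CORVET and retromer below 0 (median -0.56), whereas EHD1, EHD2, STX1A and VAMP5 were above 0. Without day 20 treated replicate 2 the TRAPP genes lay between -1.09 (TRAPPC6B) and -0.57 (TRAPPC8). On days 5, 10 and 30 the median over the members was -0.10, 0.07 and -0.02. Cell type markers, all of them from the authors' DEG lists, also differed on day 20. Summed CPM of 5 oocyte genes was 4.57 to 9.14 in controls and 148 to 258 in treated samples, that of 5 fibroblast genes 2053 to 5586 against 7990 to 9953, and that of the 2 luteal genes 827 to 2149 against 235 to 1118. The luteal sum followed CYP19A1 (log2 change -1.57), LHCGR being at a mean of 65.7 CPM in controls and 64.8 CPM in treated samples. Of 4 endothelial genes the sum was 886 to 1126 against 245 to 1304, and of 2 granulosa genes 1736 to 2482 against 283 to 808, with FSHR at -2.05 and INHA at 0.35. The 6 smooth muscle and pericyte genes summed to 383 to 505 against 434 to 869 CPM, with TAGLN (2.12), CNN1 (2.21), ACTA2 (1.47), MYH11 (1.29) and DES (0.78) above 0 and RGS5 (-1.995) below, and CD68 was at 0.305 to 2.16 against 1.82 to 7.03 CPM. The part of these in the day 20 values was not tested.

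On day 30, 9 members were listed as lower and 1 as higher in treated CL. EHD4 was at 163, 194 and 205 CPM in controls and at 51.0, 57.5 and 87.0 CPM in treated samples (-1.41, SE 0.26). SNX31 was at 28.4, 38.0 and 58.8 CPM against 11.6, 15.2 and 17.4 CPM (-1.38, SE 0.33). SEC14L1 was at 106, 128 and 144 CPM against 67.5, 71.7 and 81.9 CPM (-0.66, SE 0.21). RAB5B was at 43.5, 46.6 and 49.8 CPM against 32.3, 32.7 and 37.0 CPM (-0.34, SE 0.20), and SEC16A, the scaffold of ER exit sites, at 81.2, 82.4 and 123 CPM against 42.0, 60.8 and 71.0 CPM (-0.61, SE 0.28). In these 5 the groups did not overlap, as for 14.9% of all genes. Controls of EHD4 on day 30 were also above those of day 20 (92.2, 98.9 and 105 CPM), whereas the treated samples of the 2 days overlapped.

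The remaining members listed as lower on day 30 overlapped between the groups. SNX25 was at 26.1, 44.9 and 60.7 CPM in controls and 28.6, 29.4 and 45.4 CPM in treated samples (-0.23, SE 0.34). EHD2 was at 16.6, 23.2 and 52.2 CPM against 11.2, 15.6 and 21.9 CPM (-0.81, SE 0.46). VAMP5, a SNARE known from muscle, was at 7.22, 9.07 and 18.6 CPM against 5.56, 7.91 and 8.39 CPM (-0.56, SE 0.42), and RAB8B, of the route from Golgi to plasma membrane, was at 8.79 to 12.6 CPM against 7.34 to 11.1 CPM (-0.24, SE 0.31). RAB30, a Golgi GTPase and the only member listed as higher, was at 7.93, 9.45 and 10.1 CPM in controls and at 14.0, 15.4 and 18.6 CPM in treated samples (0.92, SE 0.26). Its groups did not overlap, as for 14.9% of all genes. EHD2 was thus listed in opposite directions on days 5 and 30. Groups without overlap in opposite directions on different days were seen in 2 members, SEC61A2 and RAB7B, above controls on day 10 and below them on day 30, as for 3.31% of the genes tested on every day (0.545% for that pair of days and order). Both members had been listed as higher with stage from these same controls. Summed CPM of 4 endothelial genes was 1415 to 1721 in day 30 controls and 506 to 1008 in treated samples, and its part in these values was not tested.

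**Figure D4:**
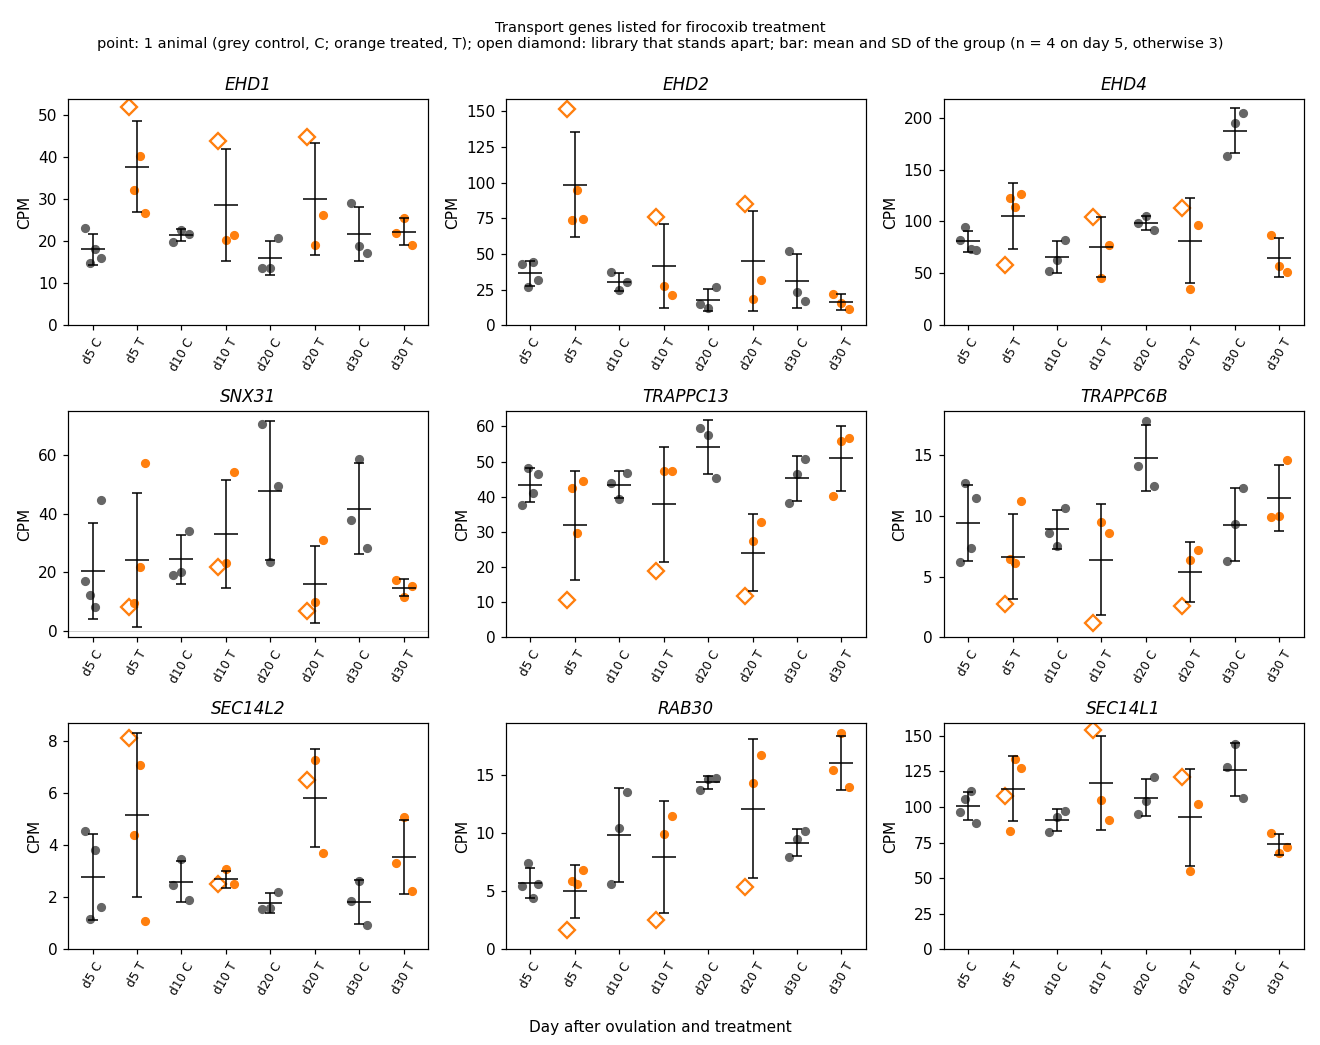
CPM of 9 members listed for treatment in every sample, by day and treatment (C control, T treated), with the group mean and SD; open diamonds are the 3 treated libraries that stood apart. EHD1 and EHD2 are separated on day 5, TRAPPC13, TRAPPC6B and SEC14L2 on day 20, and EHD4, SNX31, SEC14L1 and RAB30 on day 30. Of all genes, 8.67%, 30.3% and 14.9% did not overlap on days 5, 20 and 30.

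The 15 members on treatment lists alone were also fitted on the days for which they were not listed. A gene absent from the list of a day had not passed the authors' thresholds in those same samples. The outcome was thus largely set in advance, and no conclusion is drawn from it. None passed on day 5 (13 members), day 10 (15 members), day 20 (7 members) or day 30 (9 members) by edgeR. Of all genes, 0% passed on days 5, 10 and 30 and 0.102% on day 20, which is 14 genes and became 1016 without day 20 treated replicate 2. DESeq2, with which the authors had made the lists, called none of these members on any day, and this is no independent check. Unadjusted, the P was under 0.05 for 1 member on day 5, where this held for 11.8% of all genes, and for none on days 10, 20 and 30, where it held for 0.902%, 17% and 8.14%. That member was VAMP5 on day 5, at 9.18 to 11.5 CPM in controls and 11.1 to 27.5 CPM in treated samples (0.77, SE 0.33; FDR = 0.412, edgeR). The next were EHD2 and EHD1 on day 20, with changes of 1.35 (SE 0.61; FDR = 0.309) and 0.93 (SE 0.44; FDR = 0.322), and SEC14L2 on day 30, with 1.07 (SE 0.54; FDR = 0.654). In both EHD genes the highest treated value on day 20 was that of replicate 2, at 84.9 CPM for EHD2 and 44.7 CPM for EHD1. Without it the day 20 changes were 0.52 (FDR = 0.485, edgeR) for EHD2 and 0.53 (FDR = 0.395) for EHD1. The spread behind these tests was wide: EHD2 had a mean ± SD of 17.8 ± 7.58 CPM in day 20 controls and 45.0 ± 35.1 CPM in day 20 treated samples (n = 3), beside 36.3 ± 8.50 and 98.6 ± 36.6 CPM on day 5 (n = 4).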

How the data were processed

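Whole-CL RNA had been sequenced as single-end reads, and the 26 bitches used here were those left after the authors removed outliers. The deposited values were counts of reads per gene, which the authors made with STAR, CanFam3.1 and featureCounts without normalization, over 19856 genes per sample. Tool versions and the strand setting of the counting are not given in the sources used here. Gene symbols came from the authors' supplementary DEG lists, which pair them with identifiers; the fold changes and P-values in those lists were not used. The members and all gene lists were chosen with earlier results of these data known, and stage and treatment lists were selected from these samples.

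The sample labels set each animal's group, day and replicate number and name no batch. The read filter required a mean of 10 reads or more in either arm compared. TMM factors were applied and edgeR's quasi-likelihood test was fitted to the samples of each comparison (R 4.3.3, edgeR 4.0.16, limma 3.58.1), with Benjamini-Hochberg adjustment over all genes tested. A gene passed at P under 0.01 and FDR under 0.1, as in the study. CPM carry no pseudocount; log2 CPM, used for the map and the principal components, used a prior count of 2. Scripts were tested on simulated counts. Tests are two-sided. P-values and SEs of the treatment comparisons measure the spread between animals. The stage comparisons pooled days within a stage, so their P-values and SEs also hold differences between those days.

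All members were named within their role. Values per sample were given for the 5 members with the smallest P in each direction in the treated stage test, members on both kinds of list, members on treatment lists alone on the day they were listed for, and members with opposite signs in the 2 arms. The account of libraries that stood apart, and of members in them, was added after their values were seen. Partner genes and cell type markers were counted over those with an identifier, which came from the authors' DEG lists. One luteal marker is not reported here. Alternatives were DESeq2 1.42.0, RLE factors, no read filter, a fit of all 26 samples, the replicate number as a block, each mature day alone, an FDR under 0.05, and leaving out each sample. Any 2 samples of a group differed by far more than sampling noise (chi-square per degree of freedom of at least 46.6 in 30 pairs). Sequences were not analysed here.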

Additional observations from a re-analysis of the deposited data

Results flagged for a closer look

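In 116 groups of 4 samples (58 members in the control and in the treated animals of day 5), 11 had a sample set apart from the other 3 by a gap beyond Dixon's 95% critical value. Chance flags about 1 in 20 independent groups, here 5.8. All members were measured in the same animals, so the groups were not independent and these counts are no test.

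In day 5 controls, replicate 3 was the highest for 3 genes. It had 102 CPM of SEC24B (next 76.1), 28.8 CPM of ARFGEF3 (next 10.5) and 12.2 CPM of RAB27B (next 2.71). Replicate 5 had 5.56 CPM of RAB20, with the next sample at 2.17 CPM. RAB33A was at 0 in replicate 4 and at 0.108 CPM or more in the others, which amounts to very few reads.

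In day 5 treated animals, replicate 1, a library that stood apart from the other treated libraries over all genes, was set apart for 4 members. It was lowest for SEC24B at 25.2 CPM (next 62.4) and RAB12 at 10.1 CPM (next 19.4), and highest for SNX8 at 76.5 CPM (next 38.9) and RAB20 at 11.3 CPM (next 4.42). Replicate 5 was lowest for RAB29 at 8.04 CPM (next 10.7). RAB33A was at 0.0427 CPM in replicate 4 and at 0 in the others.

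For 2 genes every treated sample lay above every control on day 10 and below every control on day 30, as did 70 of the 12844 genes tested on every day (0.545%). For any pair of days in either order the share was 3.31%. Both genes were listed as higher with stage, and the controls of days 10 and 30 had a part in that choice. The log2 change of SEC61A2 was 0.22 on day 10 and -0.11 on day 30, and that of RAB7B was 0.55 and -0.40. The difference between the days was not tested.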

How the results depend on the processing

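Among the 43 stage-listed members, the number that passed in treated samples was 3 with TMM or RLE factors and without the read filter. It was 8 with DESeq2, 9 in the fit of all 26 samples, 7 with day 30 alone, 0 with day 20 alone and 0 when an FDR under 0.05 was the sole criterion. It was 9 without the 3 treated libraries that stood apart, an alternative chosen after seeing the data. Leaving out 1 treated sample gave 0 to 9 members (and 8 to 14 with an unadjusted P under 0.05). The count was 9 without day 20 replicate 2, 4 without day 10 replicate 5, 2 without day 5 replicate 5 and 1 without day 20 replicate 3. It was 3 without day 10 replicate 4 and 0 without any of the remaining 8. Over all genes the calls ranged from 151 to 1989 in those fits, 639 being the value with all samples, and were 1620 with DESeq2 and 1899 in the fit of all samples. The sign of RAB27B, RAB3IL1, STX1A, TMED3, TMED10 and COPZ2 held in all 13 fits, while that of ARF1, RAB5B, RAB7B, RAB9B, VPS52 and SEC61G turned in some. The cause was not tested. In the treatment tests on days not listed, 0 members passed in every fit run, leave-one-out fits included (0 to 0), although DESeq2 passed 100, 0, 1479 and 116 of all genes on days 5, 10, 20 and 30. Those members had not passed for the authors on those days, so the 0 was largely set in advance.

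Replicate numbers did not pair the samples: the correlation of deviations of same-numbered samples averaged 0.0274 across the treated stage groups, -0.275, -0.392 and -0.0782 on days 10, 20 and 30 and 0.149 on day 5, where the 3 pairs ran from -0.0975 to 0.495. With the replicate block, 1 member (RAB27B) passed in the treated stage test and 0 on days 5, 20 and 30. The block could not be fitted on day 10, whose groups share 1 number.

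Groups of 3 or 4 animals limit the treatment values, and low members such as RAB33A, RAB9B and RAB20 rest on few reads.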
